A study of Mus musculus with 49 samples.

Results

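Individual cells of the mouse metanephric mesenchyme were compared by their level of Crym, the gene whose regulatory sequence drives the reporter of the embryos used. The members were chosen by their measured Crym value: the 49 cells of the series were divided at 10 RPKM (read density scaled to gene length and library size), which gave 30 cells at or above this level, called Crym-high, and 19 below it, called Crym-low. All cells carried the same genotype, Tg(Crym-EGFP)82Gsat on a mixed background, were taken at 11.5 days post coitum (Theiler stage 19) with no treatment, and came from embryos labelled as both sexes. The kidneys were dissected under fluorescence so as to take the mesenchyme around the ureteric bud with some cells outside the Crym domain, and 1 library was made from each captured cell. Because no embryo or litter is named for any cell, all of them count as 1 sample. They are not replicates, no test was made, and every difference below describes these cells.

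The metanephric mesenchyme holds the progenitors of all nephron epithelia and, at its edge, the progenitors of the renal stroma. Nephron progenitors are kept by a network of transcription regulators that includes Six2, Eya1, Sall1, Wt1, Osr1 and the Hox11 genes, and they attract the ureteric bud by secreting Gdnf. Stromal progenitors express Foxd1 and make retinoic acid, fibrillar collagens and growth factor receptors. Crym encodes mu-crystallin, an NADPH-dependent protein that binds thyroid hormone and also reduces cyclic ketimines of lysine breakdown.

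Crym (gene ID 12971, chromosome 7, 127329898 to 127345502 in mm9) chose the groups, so its values are given as a description only. It ranged from 31.4 to 1480 RPKM with a median of 399 in Crym-high cells, and from 0.999 to 4.92 RPKM with a median of 2.14 in Crym-low cells. The cell just above the threshold was cell 42 at 31.4 RPKM, and the next was at 77.5 RPKM. The cell just below was cell 27 at 4.92 RPKM, followed by 4.19 RPKM. No cell was listed at 0, and 26 of the 30 Crym-high cells had 100 RPKM or more.

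The groups were alike in breadth of detection. A gene was counted as detected in a cell at 1 RPKM or more. Crym-high cells detected 3610 to 6510 genes (median 5221) and Crym-low cells 4126 to 6330 (median 5176). All columns name 1 sequencing run and lane. Index numbers in the headers were divided by their first digit into 5 index sets, which no label describes as a batch. Each set held 5 to 7 Crym-high and 2 to 5 Crym-low cells. Total reads per cell are unknown; cells 3 and 7, both Crym-high, had coarser values, with lowest values above 0 of 0.0141 and 0.022 RPKM against at most 0.00419 in the other 47 cells. Cell 25 with 13 of 14 ureteric bud genes and cell 27 with 8 of 8 endothelial genes were both Crym-low. Every cell of either group had at least 1 of 4 Y-linked genes at 1 RPKM or more, although the labels give both sexes.

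Of the other 13092 genes, 718 (5.48%) had a mean log2(RPKM+1) at least 1 higher in Crym-high cells and 696 (5.32%) at least 1 lower. The median difference over all genes was 0.01. Counting cells instead of levels, 296 genes (2.26%) were detected in a share of Crym-high cells at least 30 percentage points larger, and 197 (1.5%) in a share at least 30 points smaller. The ranges of the groups overlapped for every gene except Crym (0 of 13092, 0%). Genes were ranked by the pair share, which is the percentage of the 570 pairs of a Crym-high and a Crym-low cell in which the Crym-high cell had the higher value, with ties divided equally. Among 8420 genes detected in 10 or more cells, 29 had a pair share above 80% and 37 had one below 20%.

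**Figure D1:**
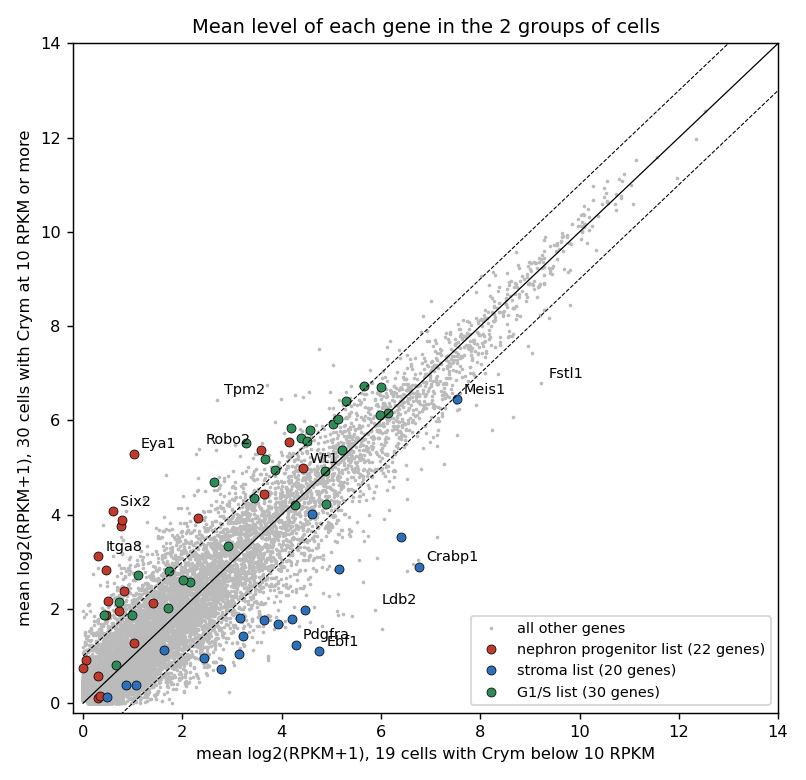
Mean log2(RPKM+1) of each gene in the 19 Crym-low cells (x axis) and the 30 Crym-high cells (y axis); each point is a gene, Crym is left out, the solid line marks equal means and the dashed lines a difference of 1. Eya1, Six2 and Itga8 stand above the upper line and Ebf1, Pdgfra and Crabp1 below the lower line, while most genes lie between the lines.

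The gene with the highest pair share was Robo2, which encodes a receptor for Slit proteins and limits where the ureteric bud grows out. Robo2 was detected in 30 of 30 Crym-high cells, at 8.44 RPKM at the lowest, 44.0 at the median and 110 at the highest. In Crym-low cells it was detected in 15 of 19, at 0.381, 2.34 and 29.5 RPKM. The lowest Crym-high cell stood above the median Crym-low cell, and the pair share was 94.4%. Eya1, a coactivator and phosphatase needed for metanephric induction, followed at 92.6%. It was at 1 RPKM or more in 28 of 30 Crym-high cells (93.3%, exact 95% binomial interval 77.9 to 99.2%) and 4 of 19 Crym-low cells (21.1%, interval 6.05 to 45.6%). Its lowest, median and highest values were 0.22, 43.9 and 281 RPKM in the former and 0, 0.217 and 177 RPKM in the latter. The 177 RPKM belonged to cell 6. Intervals on shares cover counting error only.

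Tpm2, which encodes a tropomyosin of actin filaments, ranked next with a pair share of 91.8%. Its lowest, median and highest values were 0.258, 110 and 411 RPKM in Crym-high cells and 0, 6.65 and 75.2 RPKM in Crym-low cells, so that the median Crym-high cell exceeded every Crym-low cell. Hnrnpa1, an RNA-binding protein gene, was detected in every cell and had a narrow but regular difference. It lay between 318 and 1363 RPKM (median 554) in Crym-high cells and between 109 and 443 RPKM (median 353) in Crym-low cells, a pair share of 90.7% for a difference of only 0.91 on the log2 scale. Npm1, which encodes the nucleolar protein nucleophosmin, behaved similarly, with medians of 1996 and 1213 RPKM and a pair share of 87.2%. The values of both are uncertain because processed pseudogenes resemble them.

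Six2, the regulator that maintains nephron progenitors (gene ID 20472, chromosome 17, 86083608 to 86087594 in mm9), ranked 12th. It was found in 24 of 30 Crym-high cells (interval 61.4 to 92.3%) and 3 of 19 Crym-low cells (15.8%, interval 3.38 to 39.6%). The lowest, median and highest values were 0, 44.1 and 117 RPKM in Crym-high cells and 0, 0 and 25.9 RPKM in Crym-low cells, with cell 8 as the highest of the latter. The counts of cells depended on the threshold. At 0.1 RPKM in place of 1 RPKM, Eya1 was found in 30 Crym-high and 16 Crym-low cells, Itga8 in 27 and 9, Phf19 in 27 and 10, and Foxd1 in 18 and 18. Six2 was found in 25 Crym-high and 7 Crym-low cells (0.1 RPKM), 20 and 2 cells (5 RPKM) or 18 and 1 cells (10 RPKM). Other genes of the ranking were detected in 1 or 2 Crym-low cells. Itga8, the integrin subunit that receives nephronectin from the bud, was found in 23 Crym-high cells and in 1 Crym-low cell at 3.04 RPKM. Phf19, a Polycomb accessory subunit gene, was found in 24 and 1, with medians of 20.7 and 0.101 RPKM, and the proteoglycan gene Spock2 in 23 and 2.

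The remaining genes of the highest 15 were Tpbg, which encodes the trophoblast glycoprotein (26 Crym-high and 4 Crym-low cells), the cytoskeletal linker gene Dst (25 and 5), Has2, which encodes the main hyaluronan synthase of embryonic mesenchyme (26 and 3), Zcchc2 (16 and 1), Thbs1 (20 and 0) and Abca14 (18 and 0). Has2 had a median of 21.6 RPKM in Crym-high cells and 0.122 RPKM in Crym-low cells, where cell 8 was the highest at 141 RPKM. Of the 15 genes, Eya1, Six2, Itga8 and Spock2 belonged to the nephron progenitor list.

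Thbs1, which encodes the matrix glycoprotein thrombospondin 1, was also ordered like Crym within the Crym-high cells. It was at 0 to 0.932 RPKM in all 19 Crym-low cells and reached 78.4 RPKM in cell 51. Over the 30 Crym-high cells its Spearman correlation with Crym was 0.85, the highest of 6761 genes detected in 10 or more of those cells; the next were Txndc9 at 0.65, Bex1 at 0.64 and Trp53bp1 at 0.63. The correlation between Crym and the number of genes detected was 0.09, and the part of read depth in these correlations was not tested. In the 13 cells with Crym at 500 RPKM or more, a split chosen after the values were seen, Thbs1 lay between 2.23 and 78.4 RPKM (median 9.42) and was detected in all 13. In the other 17 Crym-high cells it lay between 0 and 13.2 RPKM (median 0.402) and was detected in 7. Six2 had a correlation of 0.53 with Crym and was detected in 13 of 13 and 11 of 17 of the same cells. Eya1 had a correlation of 0.17, with medians of 39.4 and 48.5 RPKM in these cells. Robo2, first in the ranking between groups, had one of 0.28. Without the coarse cells 3 and 7 the correlation of Thbs1 was 0.82 over 28 cells. Thbs1 was singled out for the highest correlation, so this value and the split describe the same cells and are no separate support. The lowest correlations were those of Fchsd2 at -0.65, Dcaf6 at -0.60, the nuclear receptor gene Nr2f1 at -0.59 and the insulin-like growth factor 2 receptor gene Igf2r at -0.58.

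**Figure D2:**
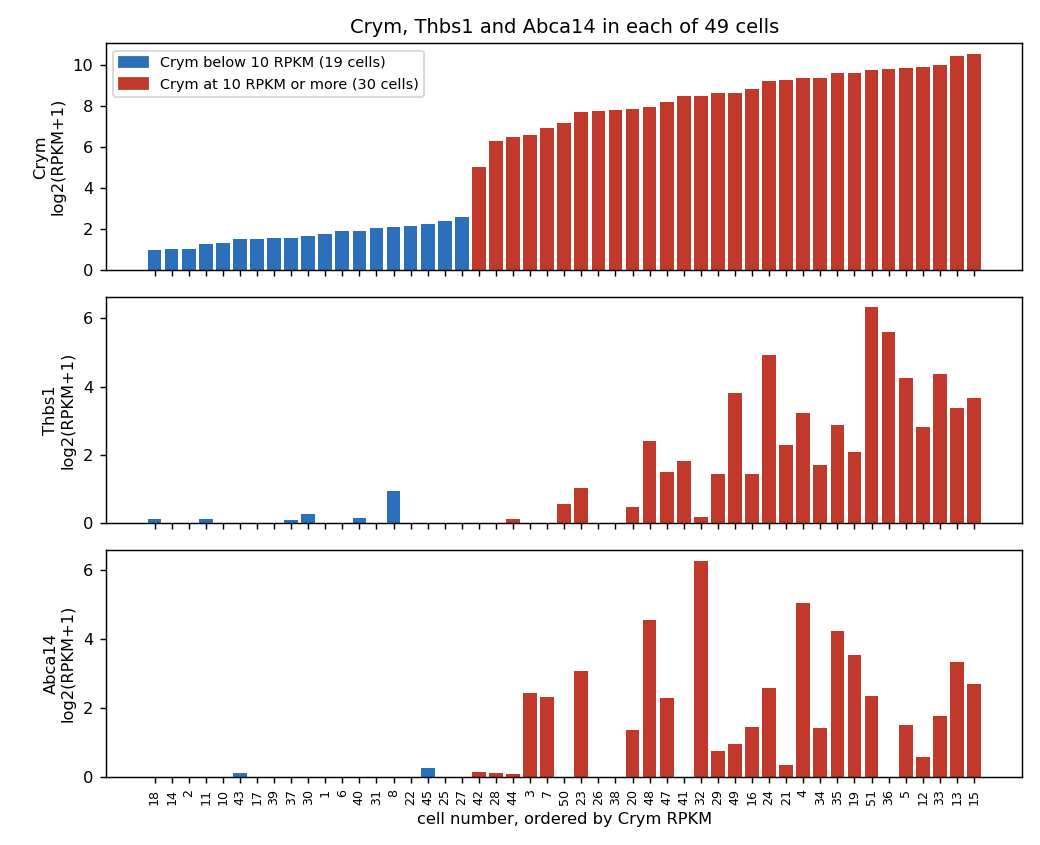
Crym, Thbs1 and Abca14 as log2(RPKM+1) in each of the 49 cells, ordered from left to right by Crym, with Crym-low cells in blue and Crym-high cells in red. Thbs1 is present in all 13 cells with Crym at 500 RPKM or more, a split chosen after the values were seen. It stays below 1 RPKM in the 19 Crym-low cells, and Abca14 reaches 1 RPKM in 18 Crym-high cells only.

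Genes beside Crym were examined for whether they followed it. Abca14, an ATP-binding cassette transporter gene, starts 1976 bases beyond the end of Crym in the deposited coordinates (chromosome 7, 127347478 to 127468866 in mm9). The GENCODE annotation of GRCm38 places Crym on the minus strand and Abca14 on the plus strand, so that the pair point away from each other. Abca14 lay between 0 and 76.7 RPKM (median 1.77) in Crym-high cells and between 0 and 0.19 RPKM in Crym-low cells. It was highest in cell 32, which had Crym at 362 RPKM, and its correlation with Crym over the 30 Crym-high cells was 0.33. Tmem159, on the other side of Crym, was found in 18 Crym-high cells (median 5.4 RPKM) and 4 Crym-low cells (median 0), and the ranges overlapped, with 133 RPKM in the Crym-low cell 2. The other 7 genes of the table within 500 kb, such as Thumpd1, Eri2 and Uqcrc2, differed by less than 1 on the log2 scale. The libraries keep no strand, so reads of overlapping transcripts cannot be told apart.

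Promoter sequences from RefSeq (GRCm38.p6, from 250 bases before to 50 after the annotated start, read 5′ to 3′ on the strand of the gene) are shown for Abca14, because its window lies in the short stretch next to Crym, and for the progenitor genes Six2 and Itga8 beside the stroma gene Pdgfra, because these differed in opposite directions. The table held no entry for Crym. Capitals mark matches on either strand to any of 7 motifs: the letters TATAAA for the TATA box, the letters CCAAT for the box of that name, the letters GGGCGG for the GC box, the letters TGACAG for Meis proteins, the letters TCAGGTTTC for the MEF3 site of muscle genes, the letters TGATTNAT for Pbx with Hox proteins, and the letters GCGGGGGCG for EGR proteins and WT1. Motifs in these windows did not overlap each other.
Abca14, chr7:120203714-120204013, plus strand: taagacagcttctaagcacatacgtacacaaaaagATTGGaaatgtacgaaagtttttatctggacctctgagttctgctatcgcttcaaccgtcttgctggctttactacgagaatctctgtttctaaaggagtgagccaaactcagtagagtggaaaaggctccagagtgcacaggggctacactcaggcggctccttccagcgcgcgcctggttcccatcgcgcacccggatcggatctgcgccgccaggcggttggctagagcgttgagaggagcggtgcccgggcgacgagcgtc
Six2, chr17:85688205-85688504, minus strand: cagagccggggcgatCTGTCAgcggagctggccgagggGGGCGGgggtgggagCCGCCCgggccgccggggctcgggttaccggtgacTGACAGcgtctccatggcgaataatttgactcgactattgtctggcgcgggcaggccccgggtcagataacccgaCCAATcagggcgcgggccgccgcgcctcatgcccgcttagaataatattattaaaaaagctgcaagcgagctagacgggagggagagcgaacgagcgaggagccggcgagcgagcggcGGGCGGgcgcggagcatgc
Itga8, chr2:12301895-12302194, minus strand: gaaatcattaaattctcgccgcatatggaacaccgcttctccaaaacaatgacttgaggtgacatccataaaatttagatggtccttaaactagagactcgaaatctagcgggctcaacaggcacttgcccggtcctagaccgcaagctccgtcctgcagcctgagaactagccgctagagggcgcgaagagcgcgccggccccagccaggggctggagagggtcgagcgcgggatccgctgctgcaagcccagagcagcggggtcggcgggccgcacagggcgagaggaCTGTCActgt
Pdgfra, chr5:75152001-75152300, plus strand: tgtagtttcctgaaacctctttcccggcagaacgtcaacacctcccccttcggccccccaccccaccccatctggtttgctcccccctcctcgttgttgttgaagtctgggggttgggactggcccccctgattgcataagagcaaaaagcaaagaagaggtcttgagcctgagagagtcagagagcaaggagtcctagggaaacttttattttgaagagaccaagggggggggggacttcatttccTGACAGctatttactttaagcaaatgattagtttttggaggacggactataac
The Six2 window held 3 GC boxes, 2 Meis motifs and 1 CCAAT box. The windows of Itga8 and Pdgfra held 1 Meis motif each, and that of Abca14 held 1 CCAAT box. Of all 32851 promoters, 37.4% held CCAAT, 35.7% the GC box, 19.2% the Meis motif, 13.6% the TATA box, 3.22% the Pbx and Hox motif, 2.91% the EGR and WT1 motif and 0.429% the MEF3 motif. Among the 15 genes with the highest pair share, 11 matched the table with 15 promoters, of which 5 held the Meis motif and 0 the MEF3 motif. Among the 15 with the lowest, 11 matched with 16 promoters, of which 4 held the Meis motif and 0 the MEF3 motif. A match describes letters in the window and is no evidence of binding.

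**Figure D3:**
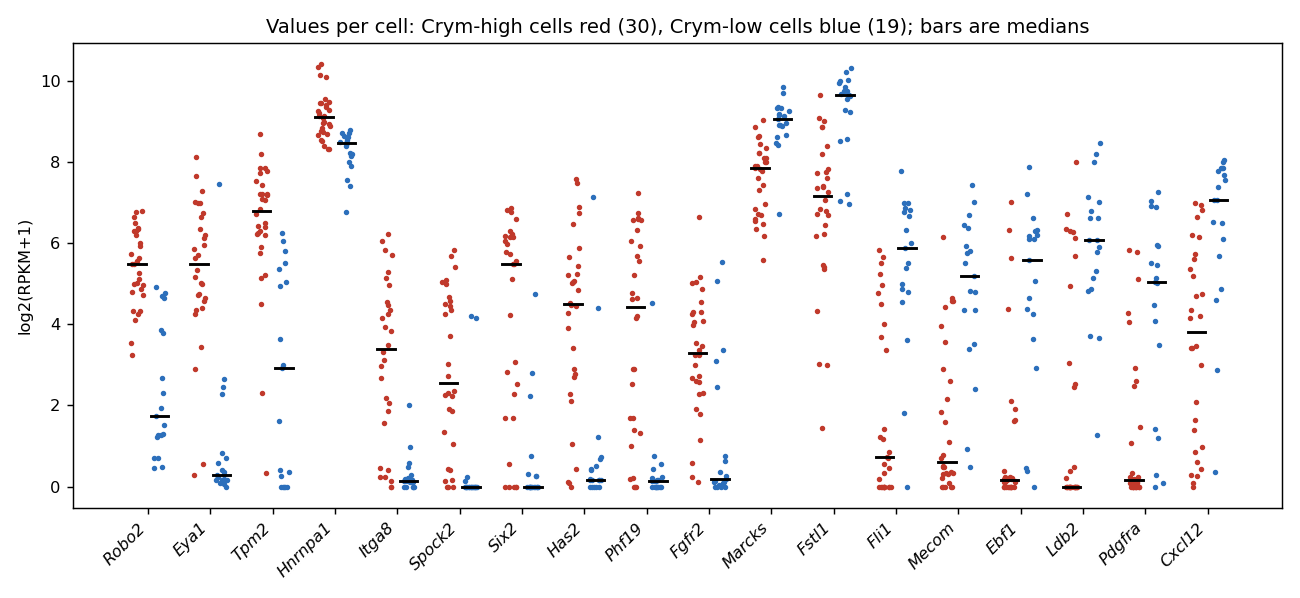
log2(RPKM+1) of 18 genes in each cell, with the 30 Crym-high cells in red, the 19 Crym-low cells in blue and a bar at each median. Robo2 to Fgfr2 have higher medians in Crym-high cells and Marcks to Cxcl12 in Crym-low cells, and the ranges overlap for every gene.

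The genes with the lowest pair shares were higher in Crym-low cells. Marcks, which encodes a substrate of protein kinase C that binds actin and the membrane, was detected in all cells and had the lowest pair share, 7.0%. Its lowest, median and highest values were 47.0, 230 and 524 RPKM in Crym-high cells and 105, 540 and 927 RPKM in Crym-low cells, so that the median Crym-low cell exceeded every Crym-high cell. Fstl1, which encodes a secreted follistatin-like protein that binds BMP ligands, had a pair share of 10.9%, with 1.71, 143 and 807 RPKM in Crym-high cells and 125, 806 and 1294 RPKM in Crym-low cells. Slc7a11, the cystine transporter gene, was low throughout but regular, at 0 to 4.19 RPKM in Crym-high cells (median 1.81) and 1.52 to 9.6 RPKM in Crym-low cells (median 4.32).

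Fli1, Mecom, Prdm16 and Ebf1 among these 15 genes encode transcription regulators. Fli1, an ETS factor gene, was found in 13 of 30 Crym-high cells and 18 of 19 Crym-low cells, with medians of 0.645 and 58.0 RPKM. Its highest value, 219 RPKM, was in cell 27, the cell with endothelial genes. The other 18 Crym-low cells had 0 or 1 endothelial gene at 1 RPKM or more. The part of endothelial cells in the Fli1 difference was not tested. Mecom and Prdm16, related zinc finger genes, were found in 13 against 17 cells and in 2 against 8 cells. Ebf1, an early B-cell factor gene that mesenchyme also uses, was found in 8 Crym-high cells (median 0.127 RPKM) and 16 Crym-low cells (median 47.3 RPKM). Further genes of these 15 were the chemokine gene Cxcl12, the lysophosphatidic acid receptor gene Lpar1 (14 and 17 cells), the annexin gene Anxa5 (18 and 18 cells, medians 8.25 and 144 RPKM), the LIM protein gene Csrp2 (20 and 18 cells, medians 6.36 and 162 RPKM), the microfibril gene Mfap2 (medians 374 and 940 RPKM), and Tuba1a and Actg1. The last pair have near-identical paralogs, so their values are uncertain.

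All 22 genes of the nephron progenitor list, from which Crym was left out, were in the table. In Crym-high cells 13 were higher by at least 1, against 5.48% of all genes, and 0 were lower, with a list median of 1.40 against 0.01. Beyond Eya1, Six2, Itga8 and Spock2, these were Meox2, Osr1, Sall1, Rspo1, Meox1, Hoxa11, Cited1, Cdh11 and Gdnf. Meox2, a homeobox gene of early mesoderm, was found in 20 Crym-high and 2 Crym-low cells, with medians of 29.0 and 0 RPKM. Osr1, an early regulator of the kidney field, was found in 20 and 4, with medians of 19.9 and 0 RPKM. Sall1 was found in every Crym-high cell and in 14 Crym-low cells, with medians of 56.1 and 20.2 RPKM. Pax2 and Uncx were low, but no Crym-low cell had either at 1 RPKM or more, whereas 8 and 12 Crym-high cells had. Wt1 differed by 0.56, with medians of 44.7 and 21.2 RPKM and the highest value of all, 164 RPKM, in the Crym-low cell 37. Fgf20, Tmem100 and Hoxc11 differed by less than 0.3 in either direction.

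Of 22 stroma genes 20 were in the table, and 15 of these were lower in Crym-high cells by at least 1, against 5.32% of all genes, with 0 higher and a list median of -1.97. Crabp1, which encodes a retinoic acid binding protein, had the largest difference at -3.87: it was found in 13 Crym-high cells (median 0 RPKM) and 16 Crym-low cells (median 313 RPKM). Pdgfra, the receptor gene for platelet-derived growth factor, was found in 10 and 16 cells with medians of 0.11 and 32.0 RPKM, and Pdgfrb in 7 and 12 with medians of 0 and 2.25 RPKM. Foxd1, the regulator that defines stromal progenitors, was found in 11 of 30 Crym-high cells (36.7%, interval 19.9 to 56.1%) and 13 of 19 Crym-low cells (68.4%, interval 43.4 to 87.4%). Its medians were 0.38 and 11.6 RPKM. The intervals overlap, but they cover counting error only and are no test of a difference. Cxcl12 had medians of 13.5 and 134 RPKM. Meis1 was found in all 49 cells, with medians of 97.5 and 221 RPKM. Tbx18, Tcf21, Ntn1, Dcn and Lum differed by less than 1. Tcf21, a regulator of kidney mesenchyme, was close in both groups, with medians of 21.0 and 23.1 RPKM.

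Within these 2 lists the counts depended on how low values were weighted: with a pseudocount of 10 in place of 1 the higher progenitor genes numbered 5 and the lower stroma genes 8. At a difference of 2 there were 6 higher progenitor genes. Without cells 3 and 7 the counts were 13 and 15, and without cells 25 and 27 they were 12 and 16. The direction of the list medians was the same in each of the 5 index sets. The medians ran from 0.58 to 1.94 for nephron progenitor genes and from -2.51 to -0.87 for stroma genes. A set held as few as 2 Crym-low cells, and the sets are not replicates.

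The number of list genes per cell overlapped between the groups. Crym-high cells detected 5 to 17 progenitor genes (median 13) and 2 to 17 stroma genes (median 5), and Crym-low cells 0 to 15 (median 5) and 3 to 18 (median 14). More progenitor than stroma genes were found in 23 of 30 Crym-high cells, equal numbers in 1 and fewer in 6. In Crym-low cells more progenitor genes were found in 2 of 19, cells 6 and 8, which had 14 and 15 progenitor genes. For 12 of the 22 progenitor genes the highest Crym-low value stood in cell 6 or cell 8. In 9 Crym-high cells both lists had 10 or more members at 1 RPKM. Cell 42, the cell with the least Crym of the high group, had 5 progenitor and 12 stroma genes, and Crabp1 reached its highest Crym-high value there, at 516 RPKM. Cell 27 had 0 progenitor and 3 stroma genes beside its endothelial genes.

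**Figure D4:**
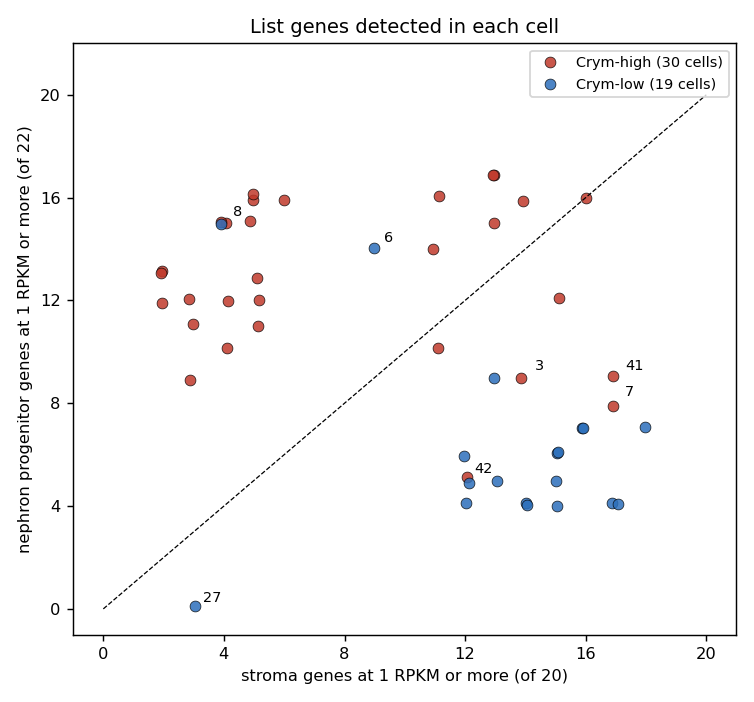
Number of nephron progenitor genes (y axis, of 22) and stroma genes (x axis, of 20) at 1 RPKM or more in each cell, with small random offsets, Crym-high cells in red and Crym-low cells in blue, and a dashed line at equal numbers. Of the Crym-high cells 23 lie above the line, and of the Crym-low cells only cells 6 and 8 do.

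Both ligand and receptor genes of the signals between mesenchyme and bud differed. The signalling, matrix, retinoic acid and Hox lists share some genes with the progenitor and stroma lists, so their counts are not separate. Of 28 genes of Gdnf and Fgf signalling 26 were in the table, of which 10 were higher by at least 1 (5.48% of all genes) and 0 lower, with a list median of 0.14. Fgf10 and Gdnf, the ligands that act on the bud, were found in 20 and 13 Crym-high cells and in 5 and 3 Crym-low cells. The receptor gene Fgfr2 was found in 27 of 30 Crym-high cells, at 0.0802 RPKM at the lowest, 8.89 at the median and 99.3 at the highest, and in 5 of 19 Crym-low cells, at 0, 0.145 and 45.7 RPKM. Fgfr1 had medians of 52.5 and 23.4 RPKM. Gfra1, the Gdnf co-receptor gene, was found in 21 Crym-high cells (median 8.83 RPKM) and 3 Crym-low cells (median 0). Its partner Ret was detected in 0 of 30 Crym-high cells (exact 95% upper limit of the share 11.6%) and in 1 Crym-low cell, cell 25, at 59.6 RPKM. Of genes induced by these signals, Dusp6 had medians of 42.0 and 4.41 RPKM and Etv5 of 7.77 and 0.432 RPKM. Etv4, Spry1, Spry2 and Spry4 differed by less than 0.3. Nell1, a secreted protein gene, was found in 14 and 1 cells.

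Of the 37 Bmp and Wnt signalling genes measured 5 were higher and 3 lower, against 5.48% and 5.32% of all genes, with a list median of -0.01. The higher members were the R-spondin genes Rspo1 and Rspo3, which strengthen Wnt signals, the Wnt effector genes Tcf7 and Tcf7l1, and the ligand gene Bmp7, which keeps progenitors alive and was found in 15 Crym-high and 3 Crym-low cells. The lower members were the Wnt antagonist gene Sfrp1 with medians of 0.118 and 12.2 RPKM, the receptor gene Fzd1, and Bmp5, which was found in 1 Crym-high cell and 5 Crym-low cells. Of the early nephron list of 11 genes 1, Bmp7, was higher and 0 lower, against 5.48% and 5.32% of all genes. Wnt4, which triggers epithelial conversion, was found in 2 and 1 cells, and Lhx1 in 0 and 1.

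Of the 35 matrix genes measured 12 were lower in Crym-high cells (5.32% of all genes) and 1, Spock2, was higher (5.48%), with a list median of -0.51. The fibrillar collagen genes Col1a1, Col1a2 and Col3a1 had medians of 0.721, 0.117 and 0.805 RPKM in Crym-high cells and 23.7, 29.6 and 40.2 RPKM in Crym-low cells. The fibronectin gene Fn1 had medians of 1.94 and 39.4 RPKM, and the proteoglycan gene Bgn was found in 2 and 11 cells. None of 9 genes of basement membrane collagens, laminins and nidogens passed a difference of 1, from Lamc1 at -0.78 to Col4a2 at 0.07. Of 13 retinoic acid genes 3 were lower and 1 higher, against 5.32% and 5.48% of all genes. The lower genes were Crabp1, Rarb and the synthesis gene Aldh1a2 (medians 5.87 and 58.3 RPKM), all of which are also on the stroma list. The dehydrogenase gene Rdh10, which acts a step earlier, was higher, with medians of 18.5 and 1.44 RPKM.

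The lists tied to the biochemistry of mu-crystallin were too short to set their counts apart from the shares over all genes. Of 20 genes of thyroid hormone transport, activation and response 13 were in the table. Of these 0 were higher and 0 lower, against 5.48% and 5.32% of all genes, with a list median of 0.06. Thra, the main thyroid hormone receptor gene of most tissues, was found in 8 of 30 Crym-high and 9 of 19 Crym-low cells. Thrb was found in 1 Crym-high cell and 0 Crym-low cells. Of 6 genes of lysine and pipecolate breakdown 1 was higher, Gcdh by 1.21, and 0 were lower. Aass, the entry enzyme of the saccharopine route, was found in 2 and 0 cells.

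Replication genes were higher in Crym-high cells more often than mitotic genes were, and the difference between the lists was not tested. Of 30 G1/S genes 14 were higher in Crym-high cells by at least 1 and 0 lower, against 5.48% of all genes and 8.35% of the genes detected in 10 or more cells (7.8% of which were lower), with a list median of 0.91. Prim1, a DNA primase subunit gene, had medians of 85.3 and 4.9 RPKM, and Hells, a chromatin helicase gene, of 37.1 and 2.4 RPKM. Mcm5 and Mcm6 of the replicative helicase had medians of 83.4 and 64.9 RPKM against 40.0 and 39.8 RPKM. Other subunits of this helicase differed less: Mcm7 by 1.13, Mcm3 by 0.90, Mcm4 by 0.01 and Mcm2 by -0.06. Of 30 G2/M genes 1, Ndc80, was higher and 0 lower, against 5.48% and 5.32% of all genes, with a list median of 0.07. Ndc80 turned to -0.49 in the cells with at most the median number of genes detected. The median Crym-high cell had 23.5 G1/S and 18.5 G2/M genes, and the median Crym-low cell 20 and 16. The G1/S count was 17 without cells 3 and 7 and 12 without cells 25 and 27. It fell to 8 when only the 25 cells with at most the median number of genes detected were compared, and to 2 with a pseudocount of 10, and cell cycle phase was not assigned.

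Of the 32 Hox genes measured 4 were higher by at least 1 (Hoxb1, Hoxa11, Hoxd10 and Hoxb9) and 1 was lower (Hoxd8), against 5.48% and 5.32% of all genes, with a list median of 0.26. Hoxb9 turned to -0.08 in the 25 cells with at most the median number of genes detected. Hoxb1 was found in 14 Crym-high cells and 1 Crym-low cell, cell 6, and Hoxa11 in 17 and 3. Hoxd8 had medians of 1.68 and 47.7 RPKM. Of 16 glycolysis genes 1 was higher and 1 lower, against 5.48% and 5.32% of all genes, with a list median of 0.16. These were the hexokinase gene Hk2, with medians of 69.1 and 1.32 RPKM, and Tpi1, which was lower by 1.2. Ribosomal protein genes had a list median of 0.24, with 0 of 20 past 1, and their values are uncertain because processed pseudogenes resemble them.

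Of 15 housekeeping genes 2 were higher, Tfrc and Tbp, and 0 lower, against 5.48% and 5.32% of all genes, with a list median of 0.01. Tbp was found in 15 of 30 Crym-high and 8 of 19 Crym-low cells. Of 12 dissociation stress genes 1 was higher and 1 lower, against 5.48% and 5.32% of all genes, with a list median of 0.19. These were Dusp1 and Btg2, at 1.03 and -2.28. Of the 4 Y-linked genes 0 passed a difference of 1.

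Markers of other cell types are given as a description of both groups. Over the endothelial list the summed level was 0 to 31.6 RPKM in Crym-high cells and 0 to 1125 RPKM in Crym-low cells, and none of the 8 genes reached 1 RPKM in 25 of 30 and 15 of 19 cells. Over the ureteric bud list it was 0 to 358 and 0 to 954 RPKM. Of its 14 genes 1, Gfra1, was higher by at least 1 and 0 lower, against 5.48% and 5.32% of all genes. Over the muscle and mural list the summed level was 0 to 901 and 0.252 to 1431 RPKM. Of its 6 genes 1, Des, was higher by at least 1 and 2, Rgs5 and Myl9, were lower, against 5.48% and 5.32% of all genes. Rgs5, a pericyte gene, had medians of 0 and 33.0 RPKM, the myosin light chain gene Myl9 of 0 and 0.661 RPKM, and Des of 15.1 and 0.331 RPKM. The other members differed less: Cspg4 by 0.11, Acta2 by -0.22 and Tagln by -0.72. None of 3 macrophage genes reached 1 RPKM in 28 of 30 and 17 of 19 cells, and the 1 erythroid gene in the table did not in 26 and 16. Of 6 neural genes 1, Elavl4, was higher and 0 lower, against 5.48% and 5.32% of all genes, with a list median of 0.21. The part of such cells in the differences above was not tested, beyond the counts given without cells 25 and 27.

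**Figure D5:**
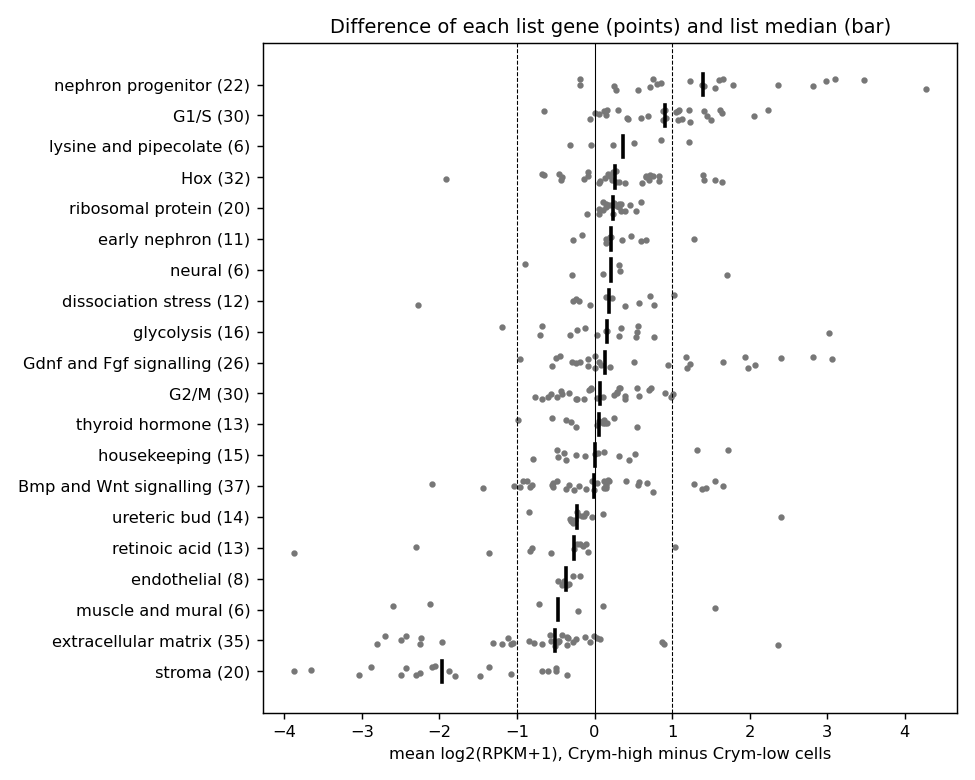
Difference of mean log2(RPKM+1), Crym-high minus Crym-low cells, for each gene of the lists with 6 or more genes in the table (points, number in parentheses) with the list median as a bar and dashed lines at -1 and 1. The nephron progenitor list has its median at 1.40, the G1/S list at 0.91 and the stroma list at -1.97, and the housekeeping list at 0.01.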

How the data were processed

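Each of the 49 samples is 1 cell captured on a Fluidigm C1 chip, amplified with SMARTer chemistry and sequenced after Nextera XT tagmentation, per the labels' protocols. Per the file headers, the authors deposited RPKM. The submitters' processing notes list TopHat 1.4.1, DESeq and mm9, with no role for any. Which program counted reads, and on which annotation, was not given in the sources used here. Listed are 13093 genes above 3 RPKM in at least 1 cell, and the deposited count of such cells matched in all 13093. No column of values per cell was unused (0).

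Columns were matched to samples by cell number. The groups follow Crym at 10 RPKM, and the members and gene lists were chosen with earlier results of these data known. No cell was filtered, no doublet caller was run and no p-value was computed. Levels were compared as mean log2(RPKM+1), a pseudocount of 1, which understates changes of low genes; shares have exact (Clopper-Pearson) 95% intervals. List genes were matched by symbol or gene ID (380 of 437 entries, 2 by ID). List genes outside the table were not analysed here. A few genes are not reported here. Genes were named from the lists, from the 15 highest and 15 lowest pair shares, from the 500 kb around Crym, and from the 8 highest and 8 lowest correlations with Crym. Ldb2, labelled in the figures, came from none of these sources. Names in the closing observations were chosen after their values were seen. Scripts were tested on simulated data. Python 3.11.15, numpy, pandas and scipy were used.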

Additional observations from a re-analysis of the deposited data

How the results depend on the processing

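The counts of 718 higher and 696 lower genes depended on the weight of low values: they were 1595 and 1611 with a pseudocount of 0.1 and 73 and 105 with one of 10, and at a difference of 2 they were 66 and 69. With a pseudocount of 10 the lists gave 5 higher progenitor, 8 lower stroma and 2 higher G1/S genes, and at a difference of 2 they gave 6 progenitor and 2 G1/S genes. With RPKM divided by their sum in each cell, 1074 genes were lower. Cells above the median number of genes detected gave 1215 higher and 1059 lower genes, and the other cells 1129 and 1420, each with fewer cells compared, and in the latter 8 G1/S genes. In those latter cells Gmnn (-0.08), Hoxb9 (-0.08) and Ndc80 (-0.49) changed direction; the cause was not tested. The remaining 104 of 107 named genes past 1 kept their direction there, and all 107 did so under the other 7 settings applied to single genes. The 107 were chosen for a difference of at least 1 in these same cells, so a kept direction is little support. Still past 1 were 41 with a pseudocount of 10, 85 in cells above the median number of genes detected and 91 in the other cells. Under the remaining settings 99 to 107 were. The filter on genes detected in 10 or more cells, and the runs on single genes and on the G1/S list, were added after seeing the data. Counts moved by less than 1.5 times without cells 3 and 7, without cells 25 and 27, with Crym-high taken from 100 RPKM, and with filters at 5 or 10 cells. No paired analysis was possible because the labels number no replicates across the groups; the differences within each index set stand in the report. Total reads per cell are unknown, so a gene at 0 in a cell may have been missed.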

Other observations

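Of 557 genes at 1 RPKM or more in every cell, 10 were higher and 14 lower in Crym-high cells by at least 1 on the log2 scale, which is 1.8% and 2.51% against 5.48% and 5.32% of all genes. The chaperonin gene Hspd1 lay between 63.1 and 805 RPKM (median 312) in Crym-high cells and between 1.92 and 467 RPKM (median 124) in Crym-low cells. Ruvbl1, an ATPase gene of chromatin remodelling complexes, had medians of 141 and 49.3 RPKM, and Dpy30, a subunit gene of histone methyltransferase complexes, of 102 and 45.2 RPKM. The surface glycoprotein gene Cd24a had medians of 581 and 389 RPKM. In the other direction, the galectin gene Lgals1 had medians of 75.2 and 470 RPKM, with its highest value of 1704 RPKM in a Crym-high cell. The growth factor gene Igf2 had medians of 81.2 and 127 RPKM, the tetraspanin gene Cd63 of 91.7 and 215 RPKM, and the myosin light chain genes Myl12a and Myl12b of 84.7 and 158 RPKM against 182 and 388 RPKM.

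Over all 13092 genes, 1123 (8.58%) were detected in Crym-high cells only and 711 (5.43%) in Crym-low cells only, in groups of 30 and 19 cells, so that absence from the smaller group is easier to reach. Of the 718 higher genes 21 were of the first kind, and of the 696 lower genes 4 were of the second. After Thbs1 and Abca14, the members found in most Crym-high cells were Stc1, a stanniocalcin gene (13 cells, up to 107 RPKM), Irgq (12 cells, up to 136 RPKM), the Cxcl12 receptor gene Cxcr4 (12 cells, up to 48.6 RPKM) and, at 11 cells, Pnmt, which encodes the enzyme that makes adrenaline (up to 148 RPKM, and listed at 0 in all 19 Crym-low cells), with Defb36 also in 11 cells and at 0 in all 19 Crym-low cells. Cxcr4 reached 0.999 RPKM in a Crym-low cell, just under the detection threshold. The exact 95% upper limit of the share for 0 of 19 cells is 17.6%. These genes were chosen for being detected in 0 of them, so the limit does not bound their share. Klhdc5 was found in 9 Crym-low cells, up to 23.8 RPKM, and in 0 Crym-high cells.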
